A study of Mus musculus with 8 samples.

Results

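Cacna1a and 9 other genes that move calcium ions across the membranes of a cell were examined in cultured macrophages with and without a deletion directed at Klf2. They are the voltage-gated channel subunit genes Cacna1a, Cacna1d and Cacnb3, the exchanger gene Slc8a1, the store-operated entry genes Stim1 and Orai1, the release channel genes Itpr1 and Itpr2, and the pump genes Atp2a2 and Atp2b1. All 10 were found among the 23761 genes of the deposited table. Cacna1a was selected on its difference between the same libraries, and Cacnb3 and Slc8a1 were selected on the study's naming of them from these data. The other 7 were chosen by function, but with earlier results of these data known. Genotype differences of the 10 genes are therefore given as a description, with no p-value.

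A resting cell keeps the calcium concentration of its cytosol far below that of its surroundings and of its endoplasmic reticulum. In macrophages and other cells without action potentials, calcium is known to enter mainly through store-operated channels. When inositol trisphosphate receptors empty the endoplasmic reticulum, STIM proteins sense the loss and open ORAI channels in the plasma membrane, and pumps and exchangers then remove the calcium. Voltage-gated channels, which consist of a pore-forming alpha1 subunit with beta and alpha2-delta subunits, are best known from neurons and muscle, where the channel built on Cacna1a serves transmitter release at synapses.

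Bone marrow-derived macrophages (BMDMs), macrophages that differentiate from flushed marrow in L929-conditioned medium, were compared between LysM mice (LysM Cre/Cre, 4 libraries) and K2KO mice (LysM Cre/Cre; KLF2 flox/flox, 4 libraries), all at 3 months of age. In both groups Cre is driven by the lysozyme M locus, which is expressed in myeloid cells, so the controls share the Cre allele and differ in lacking the floxed Klf2. The mice are described as being on a C57BL/6J background, and the sample descriptions mark all libraries "veh". Levels are FPKM, fragment numbers scaled to transcript length and to the mapped fragments of the library, summing to 497253 to 551608 in the LysM libraries and 448235 to 501965 in the K2KO libraries. FPKM do not give the number of reads behind a value. The ratios of low values between libraries placed their depth between 0.8999 and 1.4645 relative to library LysM0. The libraries are named here LysM0 to LysM3 and K2KO0 to K2KO3, by the number that ends each column name, and no column could be tied to a mouse. The sample titles instead run from LysM1 to LysM4 and from K2KO1 to K2KO4, so a name used here need not be the sample of that title. In bulk RNA, fewer cells of a type and less RNA per cell cannot be told apart.

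Klf2 itself (ENSMUSG00000055148.7, mm10 chr8:72319033-72321656, plus strand) was not clearly lower in the libraries labelled K2KO. It stood at 44.1, 52.9, 64.7 and 72.8 FPKM in LysM0 to LysM3 and at 45.5, 41.6, 59.2 and 59.3 FPKM in K2KO0 to K2KO3. The log2 fold change was -0.18 with a standard error (SE) of 0.17, with an adjusted p of 0.499 by limma and p = 0.429 by an exact two-sided permutation test over the 8 libraries. Which exons of Klf2 the reads covered was not analysed here. The group names below are those of the labels.

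The libraries expressed macrophage markers at high levels. The 6 macrophage markers summed to 2942 to 3032 FPKM in the LysM and 2871 to 3003 FPKM in the K2KO libraries, led by Cd68 at a mean of 1807 FPKM. Because Cacna1a is best known as a neuronal gene, 8 neuronal markers were read beside it. Of these, 7 had a mean below 0.1 FPKM, among them Syt1 and Nefl, which were listed at 0 in all 8 libraries. The remaining marker, Syn1, stood at 16.0 ± 0.837 FPKM in LysM and 14.2 ± 1.76 FPKM in K2KO libraries (SD, n = 4), and its difference did not pass the test (limma adjusted p = 0.201). A value of 0 in this table does not show absence, since Gapdh, a gene used by every cell, was listed at 0 to 0.4999 FPKM.

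Cacna1a was the member with the widest separation between the genotypes. Its alpha1 subunit forms the pore of P/Q-type channels. The gene (ENSMUSG00000034656.16, mm10 chr8:84388440-84640246, plus strand) was measured at 0.704, 0.447, 0.354 and 0.456 FPKM in LysM0 to LysM3. In K2KO0 to K2KO3 it was measured at 7.94, 7.42, 7.05 and 7.08 FPKM. Every library labelled K2KO lay about an order of magnitude above every LysM library, and the K2KO libraries lay close together. The means were 0.490 ± 0.150 and 7.37 ± 0.417 FPKM (SD, n = 4 each), a ratio of 15.0 and a log2 fold change of 3.69 with an SE of 0.16. Log2 fold changes are on the log2(FPKM + 0.1) scale throughout, which understates the change of low genes, and are positive where the K2KO libraries are higher. LysM0 was the highest of the controls. An antisense gene, Gm16183, overlaps Cacna1a and is not listed. Whether the authors' counting used strand is not stated, so its reads could not be told apart from those of Cacna1a.

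A gene was called when its limma p-value, adjusted over the 14521 tested genes with a mean of at least 0.1 FPKM, was under 0.05 and its absolute log2 fold change was over 0.26. These thresholds are those of the study. By this rule 12.7% of all tested genes were called, 7.18% as higher and 5.56% as lower in the K2KO libraries. The 4 libraries of one genotype did not overlap with those of the other in 19.8% of tested genes, and the median log2 fold change of all tested genes was 0.03. All 10 calcium handling genes passed the filter. Of these, 5 were called higher (Cacna1a, Cacnb3, Slc8a1, Atp2a2 and Atp2b1) and 1 lower (Orai1), and 7 did not overlap between the genotypes (these 6 and Itpr2). The median log2 fold change of the 10 genes was 0.26. With 1 library left out, 6, 1, 2 and 1 of the 10 genes were called without LysM0 to LysM3, and 1, 2, 1 and 5 without K2KO0 to K2KO3. Cacna1a met the call rule each time, but it was selected on these same libraries. The genes called across the table fell from 1850 to between 266 and 685 without LysM1, LysM2, LysM3, K2KO0, K2KO1 or K2KO2, and stood at 2219 and 2920 without LysM0 and without K2KO3. Since the members were chosen with results of this contrast known, nothing is read from the comparison of these counts with the background. A call of a member is likewise a description.

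**Figure D1:**
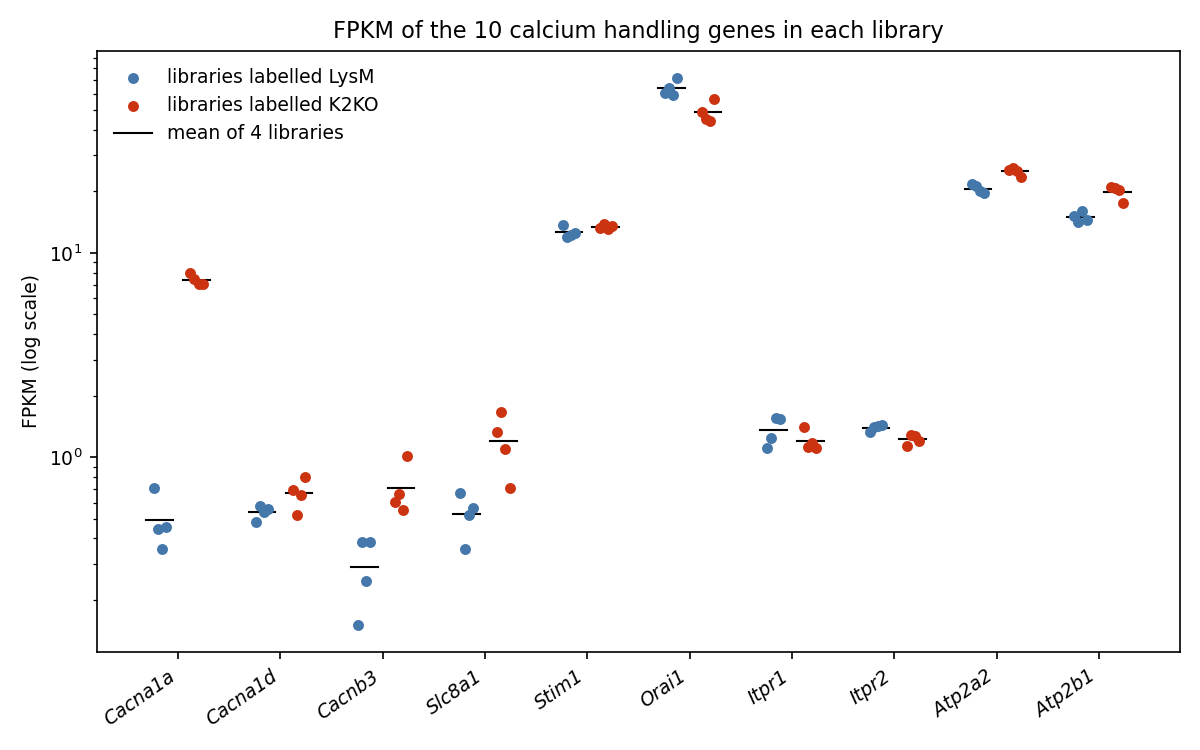
FPKM of the 10 calcium handling genes on a log axis, with a point for each library (blue, labelled LysM; red, labelled K2KO) and a black line at the mean of the 4 libraries. Cacna1a rose from a mean of 0.490 to 7.37 FPKM, while Orai1 remained the most abundant of the 10 in both groups at 64.1 and 48.8 FPKM.

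In the LysM libraries, the levels of the 10 genes followed the order Orai1, Atp2a2, Atp2b1, Stim1, Itpr2, Itpr1, Cacna1d, Slc8a1, Cacna1a and Cacnb3, per length of transcript. Orai1, Atp2a2, Atp2b1 and Stim1 were each separated from the next gene over the 4 libraries. Itpr2 overlapped with Itpr1, and the last 4 genes overlapped with their neighbours in this order, all of them near 0.5 FPKM or lower. In the K2KO libraries the first 4 genes kept their order, and Cacna1a followed as the fifth, below every Stim1 value and above every Itpr2 value. The 5 genes after it, from Itpr2 and Itpr1 to Slc8a1, Cacnb3 and Cacna1d, overlapped each with the next.

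Cacna1d, which encodes the pore of an L-type channel, was at 0.482, 0.579, 0.538 and 0.558 FPKM in LysM0 to LysM3 and at 0.689, 0.522, 0.653 and 0.798 FPKM in K2KO0 to K2KO3. The groups overlapped, and the log2 fold change of 0.25 (SE 0.16) was not called. Its locus on the opposite strand holds Dcp1a, an mRNA decapping gene called higher in the K2KO libraries (2.46 to 2.87 FPKM in LysM and 3.04 to 3.74 FPKM in K2KO libraries), and without strand the reads of overlapping ends cannot be told apart. Of the 10 alpha1 genes listed, 4 passed the filter. The remaining ones were Cacna1b, with a log2 fold change of 0.16 (adjusted p = 0.733 by limma, SE 0.29), and Cacna1f, at -0.31 (adjusted p = 0.293 by limma, SE 0.19).

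As a share of the summed FPKM of all 10 alpha1 genes, Cacna1a held 42.0%, 27.0%, 25.9% and 28.4% in LysM0 to LysM3. In K2KO0 to K2KO3 it held 87.8%, 87.5%, 86.5% and 83.8%. The other 9 genes together summed to 0.973 to 1.21 FPKM in the LysM libraries and to 1.06 to 1.37 FPKM in the K2KO libraries, ranges that overlap. Cacna1a was a minority of the alpha1 signal in every LysM library and most of it in every K2KO library.

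**Figure D2:**
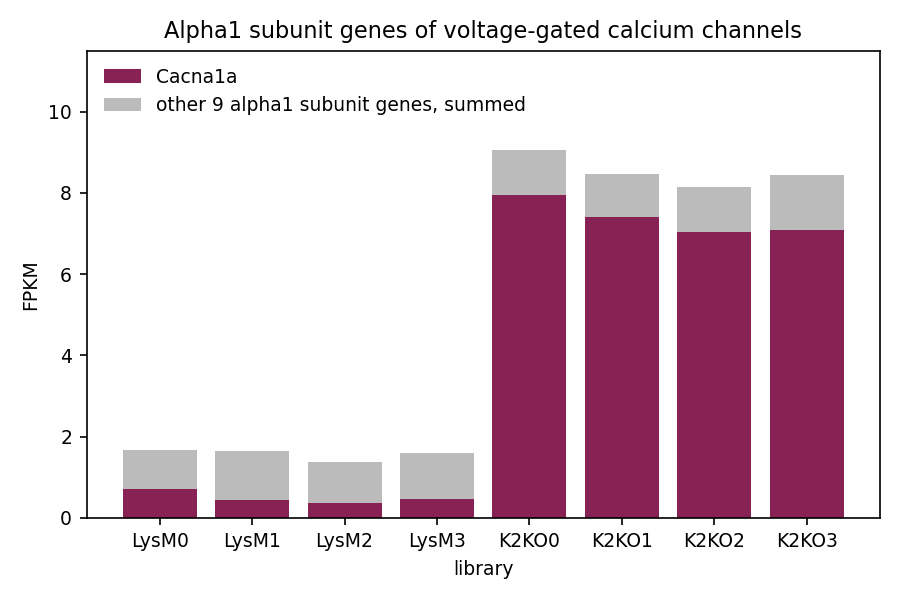
Summed FPKM of the 10 alpha1 subunit genes of voltage-gated calcium channels in each library, divided into Cacna1a (purple) and the other 9 genes (grey). The share of Cacna1a is 25.9% to 42.0% in the LysM and 83.8% to 87.8% in the K2KO libraries.

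Cacnb3 encodes a beta subunit, a cytosolic partner that aids the traffic of alpha1 subunits to the membrane. The gene (ENSMUSG00000003352.13, mm10 chr15:98630840-98644529, plus strand) stood at 0.151, 0.383, 0.246 and 0.386 FPKM in LysM0 to LysM3. In K2KO0 to K2KO3 it stood at 0.600, 0.662, 0.549 and 1.02 FPKM. The groups did not overlap, K2KO3 was the highest library, and all values were low. The log2 fold change was 1.06 (SE 0.27), at means of 0.292 ± 0.114 and 0.707 ± 0.212 FPKM (SD, n = 4). It met the call rule, which is a description only, since Cacnb3 was selected on these data. Leaving out any library other than LysM0 ended the call, with the log2 fold change between 0.86 and 1.18 over the 8 omissions. The call was also lost with no filter on low values. The log2 fold change depended on the constant added to the FPKM. It was 0.40 with 1 added and 1.30 with 0.01 added, and was called in both cases. Cacnb1 was the most abundant beta subunit gene, at 2.84 ± 0.509 FPKM in LysM and 2.35 ± 0.286 FPKM in K2KO libraries, and its log2 fold change of -0.25 did not pass the test (limma adjusted p = 0.248). Cacnb2 and Cacnb4 had means below 0.1 FPKM. The 10 listed alpha2-delta and gamma subunit genes also had means below 0.1 FPKM, the highest being Cacng8, and were not tested.

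None of the tested genes near Cacna1a was called higher, under any alternative. Within 250 kb of its span, 26 genes are listed and 22 were tested with limma. By limma none reached an unadjusted p under 0.05 in the higher direction, and the highest log2 fold change was 0.09, that of Gm26532. This limit moved with the libraries and settings. With 1 library left out the highest value was between 0.08 and 2.24, the latter that of Mir24-2 without LysM1 (limma adjusted p = 0.524). Mir24-2 was also the highest, at 0.78, without K2KO1 or K2KO2, and at 0.41 after the GC and length correction. G430095P16Rik, whose mean over all 8 libraries was under the filter, was the highest without LysM0 or LysM3 (0.64), without K2KO0 (0.96) and with no filter (0.79), and Gm26532 reached 0.25 after quantile normalization. Of the 22, 8 were called lower (36.4%, beside 5.56% of all tested genes) and 12 were lower at an unadjusted p under 0.05, a limit that 32.4% of all tested genes passed in either direction. With 1 library left out, the 8 lower calls became 8, 4, 6 and 2 without LysM0 to LysM3 and 4, 4, 4 and 8 without K2KO0 to K2KO3, and they became 6 once GC content and transcript length were corrected for. On the 5′ side the genes called lower were Mri1, an enzyme gene of methionine salvage that went from 5.41 ± 0.210 to 2.87 ± 0.190 FPKM (SD, n = 4; limma adjusted p = 0.000595), and D8Ertd738e, at a log2 fold change of -0.72 (limma adjusted p = 0.0155). On the 3′ side the nearest was Ier2, an immediate early gene 21.1 kb away, at a log2 fold change of -0.45 (limma adjusted p = 0.0281). Gm26664 had the most negative value, -1.47 (limma adjusted p = 0.0196), at under 1 FPKM in both groups. Gadd45gip1, Syce2 and Gcdh, 191 kb to 246 kb away, had log2 fold changes of -0.49, -0.74 and -0.42. The calreticulin gene Calr, 202 kb away, stood at 208 ± 16.6 and 209 ± 21.2 FPKM, with a limma adjusted p of 0.984. Cacna1a lies 12.1 Mb from Klf2 on the same chromosome, and linkage to the floxed allele cannot be told apart from the deletion in these libraries.

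**Figure D3:**
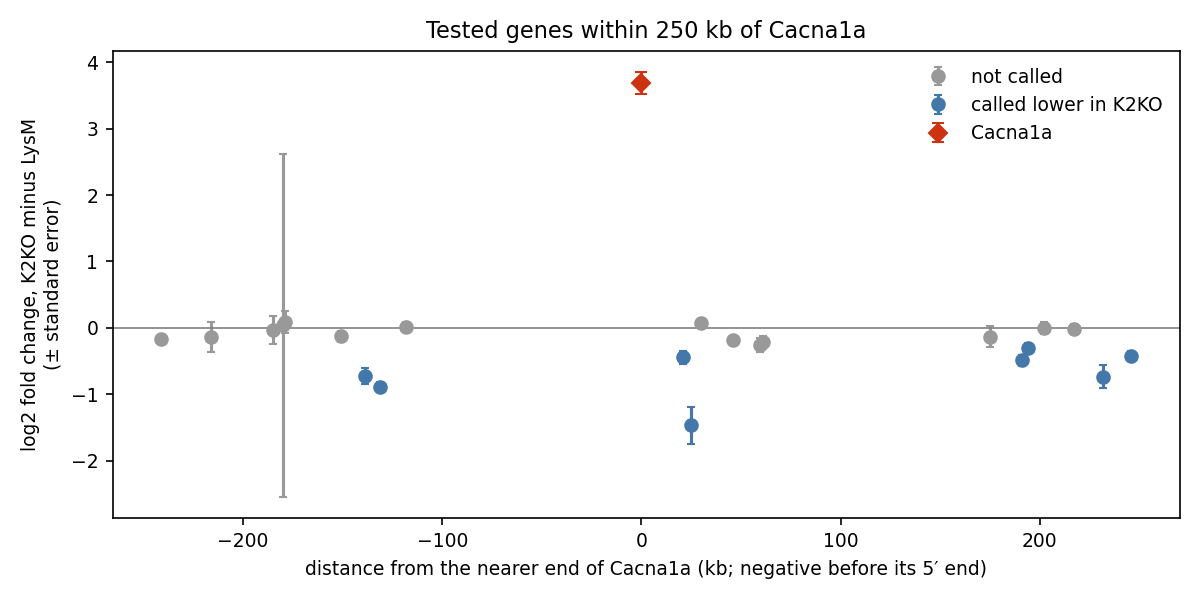
Log2 fold change (K2KO minus LysM, with the standard error) of the 22 tested genes within 250 kb of Cacna1a against their distance from its nearer end in kb. Cacna1a is at 3.69 (red), 8 neighbours are called lower (blue), and no neighbour exceeds 0.09 with all 8 libraries, a limit that reached 2.24 (Mir24-2) without LysM1 and 0.79 with no filter. The longest bar is that of Mir24-2, a microRNA gene with variable values.

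The genes whose log2(FPKM + 0.1) most resembled that of Cacna1a over the 8 libraries were Abhd14b (Pearson's r = 0.995), Gm10709 (0.993), Gm6344 (0.993), Rpl29 (0.992) and Man2b1 (0.992). A high r over 8 libraries of 2 genotypes mainly reflects a difference between the genotypes, so these values are a description, with no test. Abhd14b, on chromosome 9, was at 6.30 to 6.77 FPKM in LysM and 10.7 to 11.6 FPKM in K2KO libraries. Man2b1, a lysosomal mannosidase gene 0.443 Mb from the end of Cacna1a, was at 193 ± 9.04 and 399 ± 29.6 FPKM (SD, n = 4). Rpl29, a ribosomal protein gene 15.9 kb from Abhd14b, was listed at 0.245, 0.253, 0.102 and 0 FPKM in LysM0 to LysM3 and at 337, 349, 408 and 435 FPKM in K2KO0 to K2KO3. Gm10709 and Gm6344 were listed at 0 in all 4 LysM libraries, and in the K2KO libraries at 23.2 to 34.4 FPKM and 4.44 to 5.35 FPKM. Ribosomal protein genes have near-identical copies, and how the authors' counting treated reads shared between copies is not stated, so these 3 genes are uncertain. After each genotype mean was removed, the most similar genes included Slc4a3 (r = 0.955), Pde1b (0.954), Stx1a (0.946) and Rasal2 (0.942). Like Cacna1a, these 4 were highest in LysM0 among the controls, and none of them was called between the genotypes.

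Of the 8 tested genes of store-operated entry, 1 was called higher and 3 lower, including the member Orai1 (50.0%, beside 12.7% of all tested genes). Stim1, the calcium sensor of the endoplasmic reticulum, was at 13.8, 11.9, 12.3 and 12.5 FPKM in LysM0 to LysM3 and at 13.3, 13.8, 13.1 and 13.6 FPKM in K2KO0 to K2KO3. The groups overlapped, and the log2 fold change of 0.09 (SE 0.06) was not called. Stim2, which senses smaller losses of stored calcium, had a log2 fold change of 0.13 (adjusted p = 0.246 by limma, SE 0.07). Saraf, a regulator that limits store-operated entry, was the most abundant gene of this role, at 112 ± 3.03 and 117 ± 5.20 FPKM (SD, n = 4; limma adjusted p = 0.454).

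Orai1 forms the pore of the store-operated channel. The gene (ENSMUSG00000049686.14, mm10 chr5:123015074-123030456, plus strand) was at 60.9, 64.3, 59.4 and 71.8 FPKM in LysM0 to LysM3 and at 49.2, 45.1, 44.5 and 56.5 FPKM in K2KO0 to K2KO3. The highest K2KO library, K2KO3, lay below the lowest LysM library. The ratio was 0.762 and the log2 fold change -0.39 (SE 0.09), which was called. Leaving out any library other than LysM0 or K2KO3 ended the call, with the log2 fold change between -0.47 and -0.34. It was also lost with no filter on low values, without limma's intensity trend and after quantile normalization (-0.29).

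Of the paralogs of Orai1, Orai3 was called lower and Orai2 higher, and both calls changed with the settings. Orai3 fell from 34.7 to 41.8 FPKM in the LysM libraries to 31.6 to 34.0 FPKM in the K2KO libraries, a log2 fold change of -0.28 (adjusted p = 0.0333 by limma, SE 0.07). Orai2, the least abundant, rose from 3.44 to 3.94 FPKM to 4.30 to 5.39 FPKM, a log2 fold change of 0.32 (adjusted p = 0.0461 by limma, SE 0.09). Orai2 was not called with no filter, without the trend or after quantile normalization (limma adjusted p = 0.0868, 0.0610 and 0.141), nor was Orai3 (0.0731, 0.0587 and, at a log2 fold change of -0.22, 0.0438). Orai2 was called in 1 of the 8 cases with a library left out, without K2KO3, and Orai3 in 2, without LysM0 and without K2KO3. Summed over the 3 genes, ORAI transcripts reached 99.0 to 117 FPKM in the LysM libraries and 80.8 to 94.8 FPKM in the K2KO libraries. The level of Orai1 was 4.42 to 5.76 times that of Stim1 in the LysM libraries and 3.27 to 4.15 times in the K2KO libraries. These ranges do not overlap, but they restate the lower Orai1 beside a Stim1 that was not called. They are not corrected for GC content or transcript length. Cracr2b, an EF-hand protein that regulates ORAI channels, fell from 32.0 ± 1.65 to 23.4 ± 2.05 FPKM (SD, n = 4), which is -0.45 in log2 fold change (adjusted p = 0.0129 by limma, SE 0.07). It remained called without each of the 8 libraries in turn. Its call was lost where the replicate block and the GC and length correction, both described below, were combined (limma adjusted p = 0.065).

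No release channel gene was called. Itpr1 and Itpr2 encode receptors that release stored calcium on binding inositol trisphosphate. Itpr1 was at 1.11, 1.24, 1.55 and 1.54 FPKM in LysM0 to LysM3 and at 1.41, 1.12, 1.18 and 1.10 FPKM in K2KO0 to K2KO3. The groups overlapped, with a log2 fold change of -0.16 (SE 0.14). Itpr2 was at 1.33, 1.40, 1.42 and 1.43 FPKM in LysM0 to LysM3 and at 1.14, 1.28, 1.27 and 1.20 FPKM in K2KO0 to K2KO3. The K2KO libraries all lay below the LysM libraries, but the log2 fold change of -0.18 (SE 0.09) was not called. Gm15720, a processed pseudogene on the same strand within Itpr2, was listed at 4.71 to 7.04 FPKM, above Itpr2 itself, so that the division of reads between them is uncertain. Itpr3 had a log2 fold change of -0.02 (limma adjusted p = 0.894). Tmco1, a leak channel of the endoplasmic reticulum and the most abundant gene of this role, had a log2 fold change of -0.02 (limma adjusted p = 0.806). Of the 4 tested release channel genes, 0 were called by limma and 0 reached an unadjusted p under 0.05, beside 12.7% and 32.4% of all tested genes, and 4 genes are too few to set the role apart.

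Both pump genes among the members were higher in the libraries labelled K2KO. Atp2a2 encodes the SERCA2 pump, which refills the endoplasmic reticulum. The gene (ENSMUSG00000029467.15, mm10 chr5:122453513-122502225, minus strand) was at 21.8, 21.3, 20.05 and 19.6 FPKM in LysM0 to LysM3 and at 25.5, 26.0, 25.1 and 23.6 FPKM in K2KO0 to K2KO3. No K2KO library reached down to the LysM libraries, and the log2 fold change of 0.28 (SE 0.06) was called just beyond the fold threshold.

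Atp2b1 encodes the PMCA1 pump, which expels calcium across the plasma membrane. The gene (ENSMUSG00000019943.9, mm10 chr10:98914406-99026143, plus strand) was at 15.1, 14.1, 16.1 and 14.6 FPKM in LysM0 to LysM3 and at 21.1, 20.8, 20.3 and 17.6 FPKM in K2KO0 to K2KO3. K2KO3 was the lowest of its group and still above every LysM library. The log2 fold change was 0.41 (SE 0.07) and was called. Of the other pump genes tested, Atp2c1, the Golgi pump, had a log2 fold change of 0.35 (adjusted p = 0.0551 by limma, SE 0.10) and Atp2a3 of 0.20 (adjusted p = 0.287 by limma, SE 0.12). The call of Atp2a2 was lost without any library other than LysM0 or K2KO3, and that of Atp2b1 without LysM1, LysM3, K2KO0 or K2KO2. With 1 library left out, the log2 fold changes stayed between 0.25 and 0.31 and between 0.38 and 0.47. After correction for GC content and transcript length they fell to 0.15 and 0.18, and neither gene was called.

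Slc8a1 encodes the sodium-calcium exchanger NCX1 of the plasma membrane. The gene (ENSMUSG00000054640.14, mm10 chr17:81373105-81738377, minus strand) was at 0.670, 0.357, 0.524 and 0.562 FPKM in LysM0 to LysM3 and at 1.33, 1.66, 1.09 and 0.704 FPKM in K2KO0 to K2KO3. K2KO3 lay only just above LysM0, and the other K2KO libraries lay well above. The log2 fold change of 1.01 (SE 0.26) met the call rule, a description only, since Slc8a1 was selected on these data. The call was lost without any library other than LysM0 or K2KO3, at values between 0.85 and 1.22. It was also lost with no filter on low values, without limma's intensity trend and after quantile normalization (0.92). With 1 instead of 0.1 added to the FPKM, the log2 fold change of Slc8a1 was 0.51 and was called. The mitochondrial exchanger gene Slc8b1, by far the most abundant of this family, fell from 67.8 ± 1.72 to 55.8 ± 1.69 FPKM (SD, n = 4), which is -0.28 in log2 fold change (adjusted p = 0.0149 by limma, SE 0.05). Its call was lost without LysM3, without K2KO2 and after quantile normalization, where the value was -0.17 (limma adjusted p = 0.104). Slc24a5 and Slc24a3, which encode potassium-dependent exchangers, had log2 fold changes of 0.96 (adjusted p = 0.0942 by limma, SE 0.35) and 0.32 (adjusted p = 0.313 by limma, SE 0.21).

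The sequences before the start sites of the called members are shown because KLF factors are known to bind CACCC boxes. The RefSeq promoter table (GRCm38.p6) held 7 of the 10 genes, and Cacna1a, Itpr1 and Atp2a2 were not matched. The 250 bases before the start are written from 5′ to 3′ on the strand of the gene, with CACCC or its reverse complement GGGTG in capitals. Where a gene has several starts, the one nearest to the annotated 5′ end was used. The windows are chr15:98632078-98632327 for Cacnb3, chr17:81738388-81738637 for Slc8a1, chr10:98914392-98914641 for Atp2b1 and chr5:123014824-123015073 for Orai1. By the annotated spans, the window of Cacnb3 lies inside the gene and that of Atp2b1 almost wholly so.
Cacnb3: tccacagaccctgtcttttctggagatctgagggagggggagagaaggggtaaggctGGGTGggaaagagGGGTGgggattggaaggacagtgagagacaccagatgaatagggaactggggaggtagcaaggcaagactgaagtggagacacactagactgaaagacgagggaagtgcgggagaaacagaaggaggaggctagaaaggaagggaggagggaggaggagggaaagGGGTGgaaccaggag
Slc8a1: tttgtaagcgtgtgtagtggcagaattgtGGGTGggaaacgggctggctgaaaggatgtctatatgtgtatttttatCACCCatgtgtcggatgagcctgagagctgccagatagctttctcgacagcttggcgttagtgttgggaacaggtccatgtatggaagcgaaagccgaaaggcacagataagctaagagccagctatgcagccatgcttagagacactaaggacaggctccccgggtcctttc
Atp2b1: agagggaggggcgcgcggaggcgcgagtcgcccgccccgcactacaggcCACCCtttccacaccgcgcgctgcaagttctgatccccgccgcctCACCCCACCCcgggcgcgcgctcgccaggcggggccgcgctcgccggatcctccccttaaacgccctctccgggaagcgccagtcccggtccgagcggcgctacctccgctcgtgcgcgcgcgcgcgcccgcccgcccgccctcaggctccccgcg
Orai1: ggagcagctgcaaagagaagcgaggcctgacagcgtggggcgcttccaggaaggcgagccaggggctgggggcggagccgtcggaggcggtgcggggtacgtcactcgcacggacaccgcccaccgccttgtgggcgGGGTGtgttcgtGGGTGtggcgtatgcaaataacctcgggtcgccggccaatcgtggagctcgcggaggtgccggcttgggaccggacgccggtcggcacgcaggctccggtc

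Cacnb3 and Atp2b1 held 3 matches each, those of Atp2b1 including a pair side by side, and Slc8a1 and Orai1 held 2 each. Orai1, which was lower, and Slc8a1, which was higher, therefore had the same number. Itpr2 also had 2 matches, whereas Stim1 and Cacna1d had 0. Among the 32851 promoter windows of the table, 52.0% held at least 1 match, 21.1% at least 2 and 6.92% at least 3. A match of these letters is not evidence of a bound site.

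Base composition moved with the fold changes and differed widely among the 10 genes. Of the eighth of genes with the lowest transcript GC content (up to 42.2%), 17.6% were called higher and 1.21% lower. Of the eighth with the highest GC content (from 57.0%), 1.44% were called higher and 14.7% lower. Slc8a1 (40.2% GC) and Atp2b1 (42.6%) lie at the low end, whereas Cacna1a (58.4%), Orai1 (58.6%) and Cacnb3 (61.3%) lie at the high end.

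Each library was corrected for GC content and transcript length by local regression. Cacna1a then went from a log2 fold change of 3.69 to 3.67 and Cacnb3 from 1.06 to 1.18. These values are a description, since members were selected on these libraries. Slc8a1 went to 0.71, Orai1 to -0.2586, Atp2a2 to 0.15 and Atp2b1 to 0.18. None of these 4 was called after the correction, and Orai1 fell just short of the fold threshold of 0.26. Itpr2 and Itpr1 went to -0.32 and -0.29 and were not called either. No gene of the 10 changed sign.

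**Figure D4:**
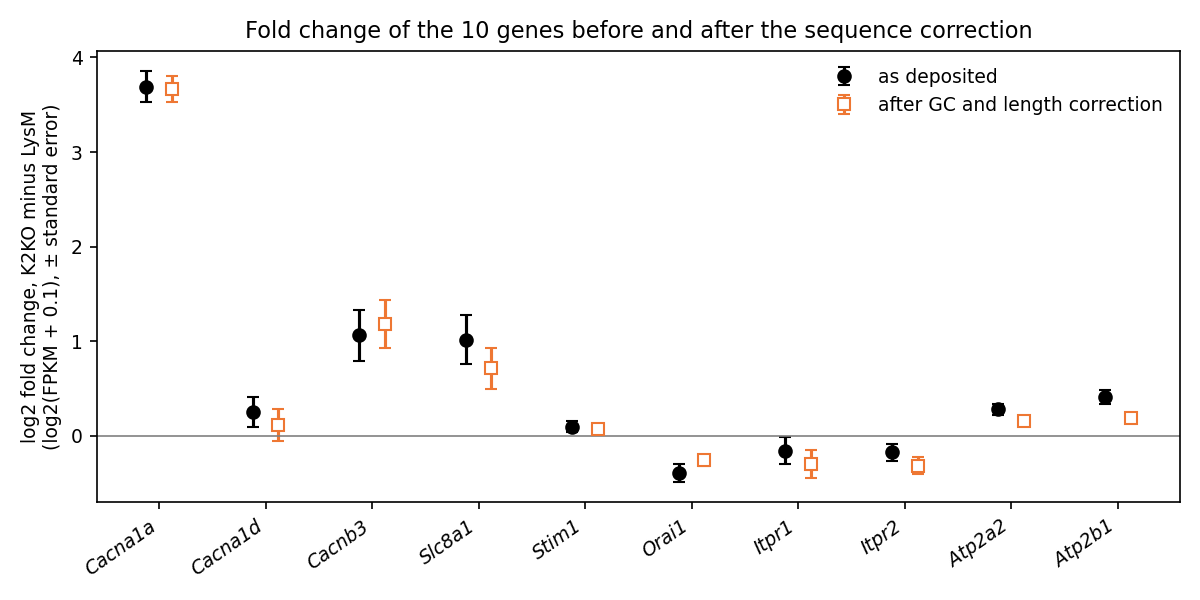
Log2 fold change (K2KO minus LysM, log2(FPKM + 0.1) scale) with its standard error for the 10 genes, from the deposited FPKM (black circles) and after correction for GC content and transcript length (open orange squares). Cacna1a moves from 3.69 to 3.67, Cacnb3 from 1.06 to 1.18 and Atp2b1 from 0.41 to 0.18.

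Among the other calcium genes, 125 were listed by role from textbook knowledge, the 10 members included, of which 119 are in the table and 77 were tested. The list was made with earlier results of these data known. Without the members, 67 were tested, and 5 were called higher and 5 lower (14.9%, beside 12.7% of all tested genes), with a median log2 fold change of 0.03. Besides Orai2, Orai3, Cracr2b and Slc8b1, these were Mcub, Mcoln3, Trpm7, Ppp3cb, Nfatc3 and Camk1. Leaving out 1 library at a time brought the count of 16 called calcium genes, members included, to 18, 5, 6 and 3 without LysM0 to LysM3 and to 4, 5, 3 and 20 without K2KO0 to K2KO3.

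In the mitochondrial uniporter complex, 8 genes were tested and 1 was called (12.5%, beside 12.7% of all tested genes). Mcub, a paralog of the pore gene Mcu that reduces uptake through the pore, was at 30.1, 42.8, 40.1 and 43.9 FPKM in LysM0 to LysM3 and at 23.9, 26.9, 28.6 and 26.7 FPKM in K2KO0 to K2KO3. All K2KO libraries were lower, at a log2 fold change of -0.55 (adjusted p = 0.0245 by limma, SE 0.12). With no filter Mcub was not called (limma adjusted p = 0.0759). Mcu itself had a log2 fold change of -0.05 (limma adjusted p = 0.820). Smdt1, the regulatory subunit EMRE and the most abundant gene of the complex, was at 212 ± 11.8 and 165 ± 33.1 FPKM (SD, n = 4; limma adjusted p = 0.0719).

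Of 11 tested lysosomal and TRP channel genes, 2 were called, both higher (18.2%, beside 12.7% of all tested genes called and 7.18% called higher). Trpm7, a channel fused to a kinase that also carries magnesium, ranged from 2.26 to 3.16 FPKM in LysM libraries and 3.35 to 4.89 FPKM in the K2KO libraries, a log2 fold change of 0.71 (adjusted p = 0.0209 by limma, SE 0.14). Mcoln3, a mucolipin channel of endosomes, went from 4.20 ± 1.34 to 7.80 ± 1.74 FPKM (SD, n = 4) with a limma adjusted p of 0.0396, although its groups overlapped. Mcoln3 was not called with no filter, without the trend or after quantile normalization (limma adjusted p = 0.117, 0.0641 and 0.0517). With no filter Trpm7 was not called either (limma adjusted p = 0.0627). Trpv2, the most abundant of these channel genes at 71.2 ± 4.44 and 65.3 ± 4.75 FPKM, did not pass the test (limma adjusted p = 0.245).

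Downstream of calcium, 19 genes of calmodulin, calcineurin, NFAT and CaM kinases were tested, 2 called higher and 1 lower (15.8%, beside 12.7% of all tested genes). Camk1, a calmodulin-dependent kinase, fell from 78.1 ± 2.09 to 63.3 ± 2.40 FPKM (SD, n = 4), which is -0.30 in log2 fold change (adjusted p = 0.0141 by limma, SE 0.05), and was called without each of the 8 libraries in turn. After quantile normalization of the libraries, the value was -0.18 and the call was lost (limma adjusted p = 0.0769). Ppp3cb, a catalytic subunit of calcineurin, rose from 10.4 ± 0.413 to 12.8 ± 0.555 FPKM (log2 fold change 0.29, limma adjusted p = 0.0198). Nfatc3, a transcription factor that calcineurin activates, rose from 5.73 ± 0.112 to 7.09 ± 0.548 FPKM (log2 fold change 0.30, limma adjusted p = 0.0296). Nfatc3 was not called with no filter (limma adjusted p = 0.0516). After quantile normalization its value of 0.24 missed the fold threshold. Calm2, the most abundant of all the calcium genes, was at 398 ± 33.6 and 402 ± 35.9 FPKM (limma adjusted p = 0.928). Of the 6 tested calcium buffers of the endoplasmic reticulum, led by Calr, 0 were called by limma and 1 reached an unadjusted p under 0.05. Of the 7 tested phospholipase C genes, 0 were called and 2 reached an unadjusted p under 0.05. Of all tested genes 12.7% were called and 32.4% had an unadjusted p under 0.05, so these small counts set neither role apart. Plcg2, the most abundant of these, had a log2 fold change of -0.02 (limma adjusted p = 0.833).

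**Figure D5:**
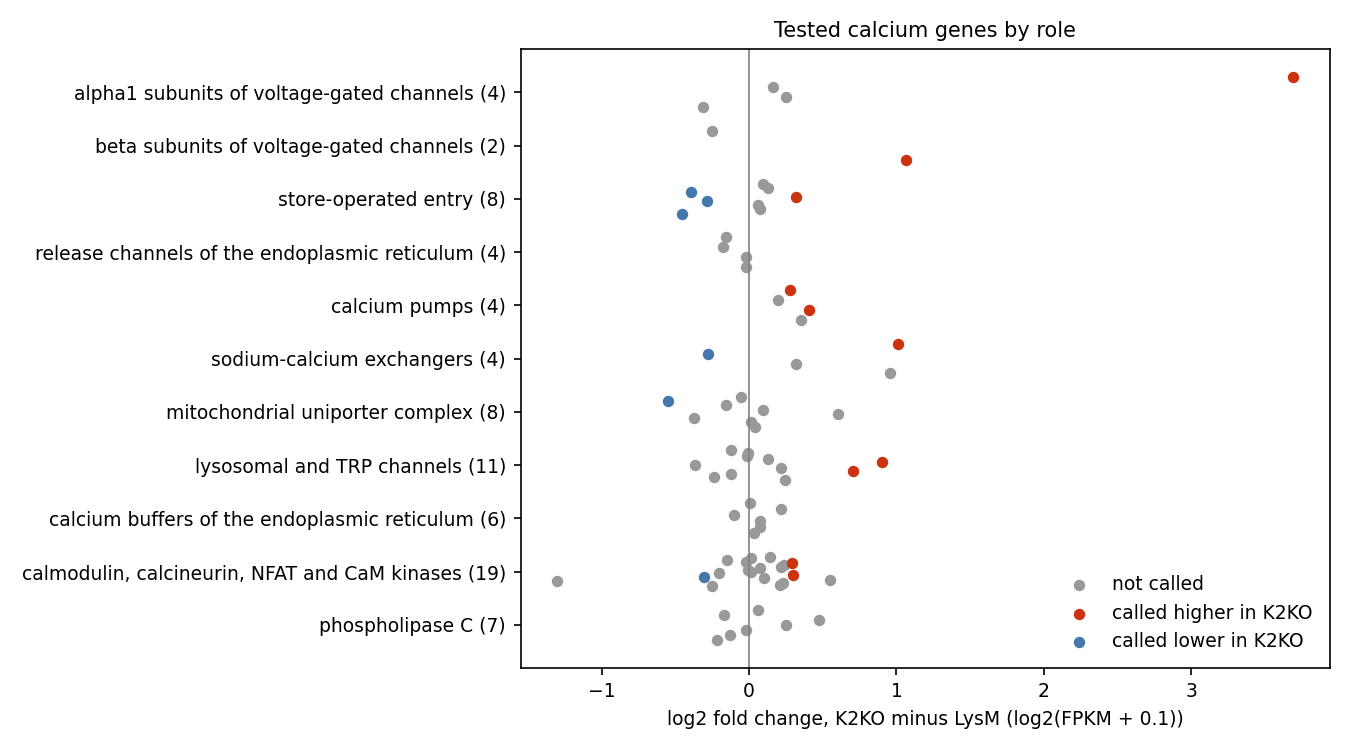
Log2 fold change (K2KO minus LysM, log2(FPKM + 0.1) scale) of the 77 tested calcium genes by role, with the number of tested genes in brackets. Cacna1a, at 3.69, stands apart from the rest of the alpha1 genes, and the other 15 called genes are spread over 7 further roles. Of all 16 called genes, 10 are higher (red) and 6 lower (blue).

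After the correction for GC content and length, 4 of the 10 called genes outside the members were still called. They were Cracr2b at a log2 fold change of -0.29 (limma adjusted p = 0.0310), Mcub at -0.50 (limma adjusted p = 0.0228), Trpm7 at 0.45 (limma adjusted p = 0.0439) and Camk1 at -0.31 (limma adjusted p = 0.0182). With the replicate block described below added to the correction, Mcub and Camk1 were called. Cracr2b and Trpm7 were then not called (limma adjusted p = 0.065 and 0.0617). Orai3 and Slc8b1, both at -0.22, stayed under the p threshold (limma adjusted p = 0.0461 and 0.0223) and missed the fold threshold. Orai2 was at 0.31 (limma adjusted p = 0.0668), Mcoln3 at 0.79 (0.0723), Nfatc3 at 0.13 (0.147) and Ppp3cb at 0.08 (0.322).

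With 1 library left out, fewer of these genes were called in the same 6 cases in which calls fell across the whole table. Cracr2b and Camk1 were called without each of the 8 libraries in turn and Slc8b1 without 6 of them. Without LysM0 and without K2KO3, Orai3, Mcub, Trpm7, Nfatc3, Ppp3cb and Mcoln3 were also called. Without each of the other 6 libraries, Orai3, Mcub, Trpm7 and Nfatc3 were not called, at limma adjusted p-values of up to 0.0963, 0.0721, 0.0668 and 0.0847. Over all alternatives their log2 fold changes kept their sign and stayed between -0.35 and -0.22 for Orai3, -0.67 and -0.49 for Mcub, 0.45 and 0.82 for Trpm7, and 0.13 and 0.35 for Nfatc3. Ppp3cb kept its call in 1 of those 6 cases, without LysM2, and Mcoln3 in 1, without LysM1. For Orai2, the limma adjusted p reached 0.106.

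The libraries labelled K2KO were not alike in these differences. For 10 of the 16 called calcium genes, and for 68.5% of the 1850 called genes of the table, K2KO3 was the library of its group nearest to the LysM mean. Among the called members this held for Orai1, Atp2a2, Atp2b1 and Slc8a1, whereas K2KO2 was the nearest for Cacna1a and Cacnb3.

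Markers of other cell types were read beside the calcium genes, against 12.7% of all tested genes called and 7.18% called higher. Of 8 neutrophil markers, 1 was called, Camp, which went from 13.6 ± 2.21 to 6.40 ± 2.53 FPKM (SD, n = 4; limma adjusted p = 0.0251), while the summed level was 186 to 315 FPKM in the LysM and 175 to 306 FPKM in the K2KO libraries, led by S100a9. Of 5 megakaryocyte markers, Gp9 and Ppbp were called higher, at log2 fold changes of 1.18 (limma adjusted p = 0.0246) and 1.07 (limma adjusted p = 0.0387), and the sums of 145 to 355 and 169 to 367 FPKM, led by Pf4, overlapped. Of 6 B and T cell markers, 3 had means under 0.1 FPKM and Cd4, which macrophages can also express, went from 1.92 ± 0.30 to 5.15 ± 0.473 FPKM (limma adjusted p = 0.000775). Their sums, led by Cd4, were 1.83 to 4.29 FPKM in the LysM and 6.01 to 7.35 FPKM in the K2KO libraries, without overlap. Of 6 macrophage markers, Mertk was called higher at a log2 fold change of 0.36 (limma adjusted p = 0.0371). The calls of Mertk and Ppbp were lost after the GC and length correction (limma adjusted p = 0.0965 and 0.0814) and after quantile normalization (limma adjusted p = 0.0515 and 0.0628). With no filter, Mertk, Ppbp, Gp9 and Camp were not called (limma adjusted p = 0.0935, 0.115, 0.0663 and 0.0826), whereas Cd4 was (0.00811). The fibroblast markers summed to 0.163 to 1.31 FPKM in the LysM and 0.556 to 3.25 FPKM in the K2KO libraries, led by Dcn, and of the 4 tested 0 were called by limma and 2 reached an unadjusted p under 0.05 (32.4% of all tested genes). The dendritic cell markers, led by Ccr7, summed to 0.576 to 2.09 and 1.61 to 4.05 FPKM, and of the 3 tested 0 were called and 1 reached that limit. The part of these cells in the differences of the calcium genes was not tested.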

How the data were processed

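Total RNA of BMDMs from 4 LysM and 4 K2KO mice was sequenced on the HiSeq platform after TruSeq Stranded Total RNA preparation. The authors deposited FPKM, with 1 column per library and no pooling. For the aligner the study's methods name TopHat2 (mm10) and the submitters' processing notes STAR, and which of them made the deposited values is not known. Both name Cufflinks, and the notes also Cuffdiff, without versions. Of 23761 genes, 23645 were matched to GENCODE release M21 for positions, transcript length and GC content. FPKM give no counts, so no counting error could be given. The study's methods give 4 mice a group, and p-values measure the spread between the libraries.

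Differences were computed on log2(FPKM + 0.1) for the 14521 genes whose mean FPKM reached 0.1. In R 4.3.3, limma 3.58.1 was run with lmFit and a trended eBayes, without covariates and with Benjamini-Hochberg adjustment. The low filter keeps calcium genes between 0.1 and 1 FPKM. Calls needed an adjusted p under 0.05 and, in either direction, a log2 fold change beyond 0.26. Klf2 was also compared by an exact two-sided permutation test.

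The members and lists were chosen with earlier results of these data known. Named genes are the members, Klf2, the most abundant gene of each role, called calcium genes outside the members without overlap between groups, the 5 genes most similar to Cacna1a by each of 2 measures, listed genes within 250 kb of Cacna1a, genes overlapping a member, and markers, of which 2 genes are not reported here. Other calcium genes and Gapdh were named after their values were seen. Alternatives were a pseudocount of 1 or 0.01, a mean FPKM of at least 1 or no filter, quantile or upper-quartile scaling, no trend, a log2 threshold of 1 or none, a replicate block, correction for GC content and length (local regression, span 0.3), both together, and each library left out. The count of calcium genes outside the members and the call without a fold threshold were added after seeing the data.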

Additional observations from a re-analysis of the deposited data

How the results depend on the processing

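The log2 fold change of Cacna1a, which was selected on these libraries and is given as a description, was 2.49 with a pseudocount of 1 and 3.93 with one of 0.01, the ends of its range over 18 alternatives. No member changed sign under any alternative run. Of the 10 members, 3 met the call rule without a filter, 4 after quantile normalization, 4 without a trend and 2 after the GC and length correction. The 1850 genes called across the table became 483 without a filter, 1158 without an intensity trend, 1039 after the GC and length correction and 182 at a log2 fold change over 1, and ranged from 266 without LysM3 to 2920 without K2KO3. The corresponding counts of called calcium genes (16) were 7 without a filter, 10 after quantile normalization, 6 after the correction and 3 at the higher threshold, and from 3 (without LysM3 or K2KO2) to 20 (without K2KO3) with a library left out. Outside the members (10) they were 4, 6, 4 and 0, and from 2 to 15. At that higher threshold the limma test itself is the same, so the count of 0 reflects the fold alone. The share of calls that were higher was 56.4%, and 33.7% after the correction. The calcium genes outside the members that were called had limma adjusted p-values from 0.00417 to 0.411 over the alternatives.

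With the number that ends each column name as a replicate block, 1853 genes, 15 calcium genes and 5 members were called, Slc8a1 and Orai2 not among them. Together with the GC and length correction, the block gave 628 genes, 35.5% of them higher, 4 calcium genes and 2 outside the members. Libraries of the same number did not deviate together (correlations of their deviations from the group means of -0.052, -0.006, 0.058 and -0.018). Among the K2KO libraries, only K2KO2 correlated best with the LysM library of its own number. These values cannot show whether libraries of the same number were prepared together. Low genes limit the firmness of Cacnb3, Slc8a1 and Cacna1d, whose levels lie near or under 1 FPKM and whose read counts are unknown. In the LysM libraries Cacna1a was also low, at a mean of 0.490 FPKM, so the size of its ratio rests on a low level.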
